A study of Mus musculus with 12 samples.

Results

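Of the 24421 gene symbols in the deposited tables, 10 form the set described here, 3 ligands and 7 receptors of the tumor necrosis factor (TNF) superfamily. They were chosen by name. The ligands were Tnf, Tnfsf10 (TRAIL) and Tnfsf12 (TWEAK), and the receptors were Tnfrsf1a, Tnfrsf1b, Tnfrsf12a, Fas, Tnfrsf10b, Cd40 and Tnfrsf11b. Where a symbol had several transcripts, the transcript with the highest total count was taken. RNA-seq of whole kidneys from male C57BL/6 mice at 6 weeks of age gave 12 libraries in 4 groups of 3. The groups were WT and Tet2-/- kidneys from healthy mice (baseline) and WT and Tet2-/- kidneys after renal ischemia-reperfusion (IR). For IR the right renal pedicle was clamped for 60 min, the left kidney was removed, and tissue was taken at 24 h. Baseline mice had no operation, so the IR comparisons also hold surgery and the loss of the other kidney. The deletion was carried by the whole animal, blood cells included, and is not restricted to a kidney cell type. Libraries of a group were treated as separate mice, and every p-value measures the spread between these libraries only.

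TNF superfamily ligands are mostly trimeric membrane proteins that can be shed, and they act on receptors that recruit TRAF adaptors or, through a death domain, caspase-8. TRAF signalling activates NF-kB and MAP kinases, whereas death-domain signalling can end in apoptosis or necroptosis. In the kidney the family is best known from acute tubular injury, where Tnf and its receptors take part in inflammation and tubular cell death, and from TWEAK acting on its receptor Fn14, the product of Tnfrsf12a, which injured tubular cells display.

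The counted totals, with 1 transcript per symbol, ran from 51007366 to 107969888 per library. The targeted gene did not follow the genotype labels at baseline. Tet2 measured 9.15, 6.25 and 7.33 FPKM (fragments scaled to transcript length and library depth) in WT baseline libraries and 9.24, 16.6 and 10.3 FPKM in the baseline libraries labelled Tet2-/-. After IR it measured 9.34, 3.97 and 3.86 FPKM in WT and 2.64, 3.20 and 1.76 FPKM in the libraries labelled Tet2-/-. The deleted exons are not given in the sources used here, so a transcript without function could still be counted. Genotype is therefore given below as labelled. The adipocyte marker genes stood apart in WT baseline replicates 2 and 3, at a summed 134.4 and 275.1 FPKM against 59.8 in replicate 1, and in IR replicate 3 labelled Tet2-/-, at 601.8 FPKM against 113.8 and 81.4.

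Promoter sequences were at hand for 6 of the 10 genes in RefSeq's table on GRCm38.p6, not for Cd40, Tnfsf12, Tnfrsf10b and Tnfrsf11b. Shown are the 250 bases before the start of the 4 whose transcripts carried the calls described below, 5′ to 3′ on the strand of the gene. Capitals mark a GC box, GGGCGG, or a TATA box, TATAAA, on either strand. They lie on GRCm38.p6 at chr17:23677450-23677699 on the minus strand (Tnfrsf12a), chr6:125349473-125349722 on the plus strand (Tnfrsf1a), chr4:145246871-145247120 on the minus strand (Tnfrsf1b) and chr17:35202008-35202257 on the minus strand (Tnf).
Tnfrsf12a: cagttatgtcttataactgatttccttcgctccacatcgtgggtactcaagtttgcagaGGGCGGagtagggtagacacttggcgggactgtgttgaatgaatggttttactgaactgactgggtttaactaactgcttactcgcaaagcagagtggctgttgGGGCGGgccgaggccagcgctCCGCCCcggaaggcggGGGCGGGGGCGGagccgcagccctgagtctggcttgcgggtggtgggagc
Tnfrsf1a: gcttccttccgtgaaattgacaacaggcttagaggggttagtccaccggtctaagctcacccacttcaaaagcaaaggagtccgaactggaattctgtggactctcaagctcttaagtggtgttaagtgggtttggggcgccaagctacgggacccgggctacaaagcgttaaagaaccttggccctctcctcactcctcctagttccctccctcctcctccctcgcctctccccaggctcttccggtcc
Tnfrsf1b: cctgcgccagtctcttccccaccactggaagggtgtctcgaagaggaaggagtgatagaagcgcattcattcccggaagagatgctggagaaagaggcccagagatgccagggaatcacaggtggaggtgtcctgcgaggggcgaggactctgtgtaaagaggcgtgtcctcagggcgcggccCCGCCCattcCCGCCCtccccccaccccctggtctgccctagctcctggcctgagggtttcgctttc
Tnf: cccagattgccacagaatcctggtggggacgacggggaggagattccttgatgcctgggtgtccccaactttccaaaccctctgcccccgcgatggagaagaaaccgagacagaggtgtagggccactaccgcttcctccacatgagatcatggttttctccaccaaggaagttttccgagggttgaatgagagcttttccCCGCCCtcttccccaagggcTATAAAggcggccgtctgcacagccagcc

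The GC box, the binding motif of Sp-family factors, occurred 5 times in the Tnfrsf12a window, 2 times in that of Tnfrsf1b, 1 time in those of Tnf and Fas, and not in those of Tnfrsf1a and Tnfsf10. It was present in 32.7% of all 32851 promoter windows of the same length. The TATA box was found in Tnf alone among the 6, at 29 to 24 bases before the start, and in 12.4% of all windows. A 10-base NF-kB motif, GGGNN directly followed by TTTCC, was in none of the 6 windows and in 1.41% of all windows. An AP-1 site, TGANTCA with C or G at N, was in the Fas window only and in 4.46% of all windows. These matches describe letters in a short window and were not tested for binding.

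The levels set the receptors apart before any injury. In WT baseline kidneys the mean was highest for Tnfrsf12a, 18.2 FPKM ± 3.38 (SD, n = 3), and for Tnfrsf1a, 17.6 ± 1.69 (SD, n = 3), whose ranges overlapped. Tnfsf12 at 8.27 ± 0.457, Tnfsf10 at 6.65 ± 4.04 and Fas at 4.91 ± 1.07 (SD, n = 3 each) followed, and the ranges of Tnfsf10 overlapped those of both neighbours. Tnfrsf1b at 0.854 ± 0.276, Cd40 at 0.644 ± 0.201 and Tnfrsf10b at 0.539 ± 0.131 FPKM (SD, n = 3 each) overlapped in turn. Tnf at 0.0780 ± 0.0115 and Tnfrsf11b at 0.0493 ± 0.0107 FPKM (SD, n = 3 each) were lowest. The order down to Fas was the same in all 4 groups. After IR the gap at the top widened, and Tnfrsf12a reached a mean of 127.6 ± 62.6 FPKM in WT and 351.8 ± 48.8 FPKM in libraries labelled Tet2-/- (SD, n = 3 each), separate from Tnfrsf1a in both.

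**Figure D1:**
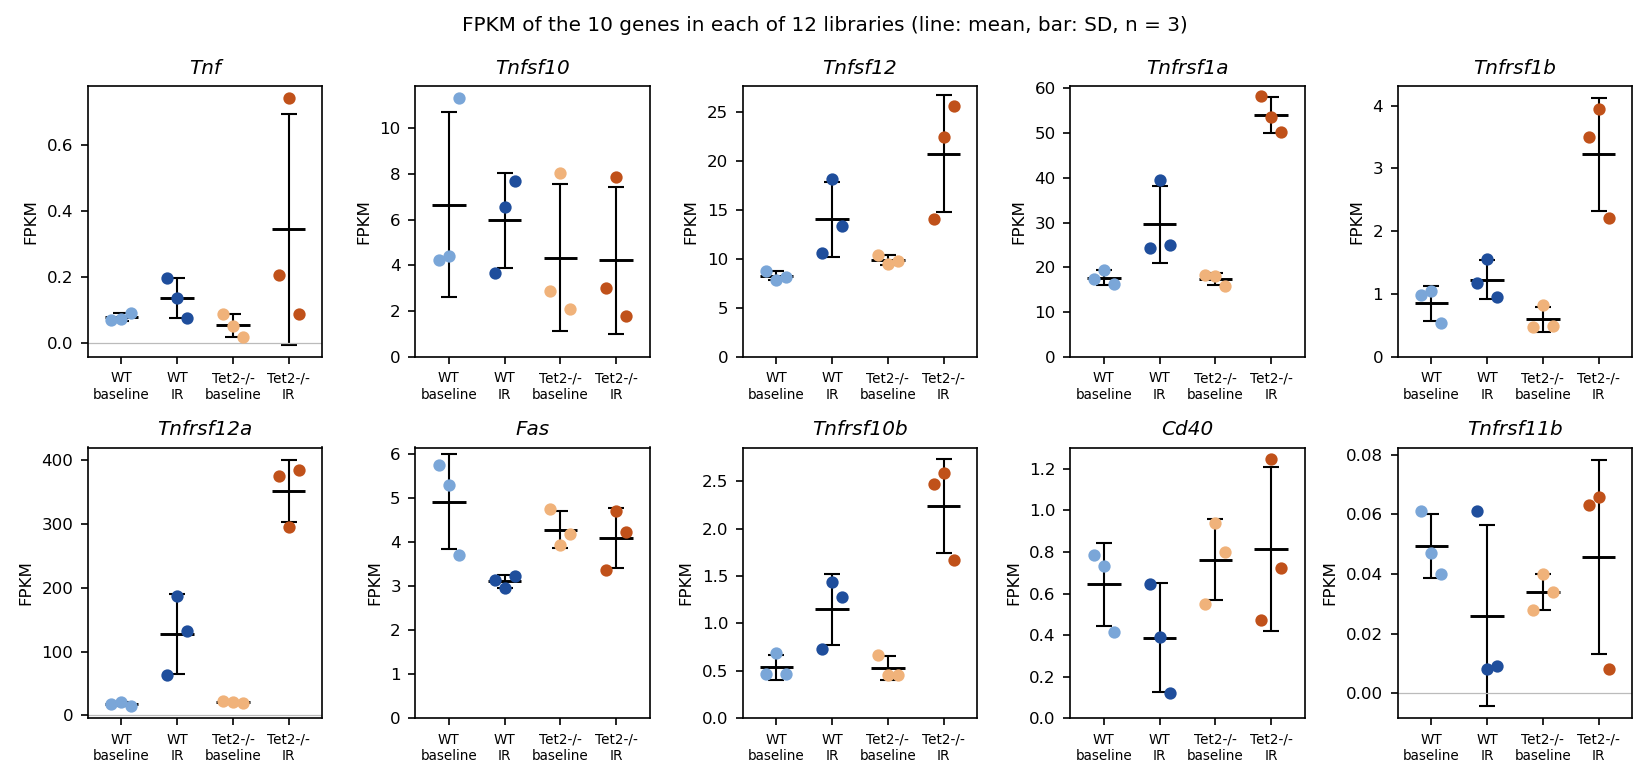
FPKM of each of the 10 genes (vertical axis, linear, 1 panel per gene with its own scale) in the 12 libraries by group; points are libraries, the line is the mean and the bar the SD of 3 libraries. Tnfrsf12a, Tnfrsf1a, Tnfrsf1b and Tnfrsf10b stood highest in the IR group labelled Tet2-/-, with every library above the 9 others, whereas only 1 library stood high in Tnf, at 0.743 FPKM.

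Calls required a Benjamini-Hochberg adjusted p below 0.05 over all genes tested, from edgeR's quasi-likelihood F test, together with a log2 fold change beyond 1 in either direction. After IR in WT kidneys, 1 of the 10 genes was called higher and 0 lower, where 1.46% of 16015 tested genes were called higher and 0.887% lower. After IR in kidneys labelled Tet2-/-, 5 of 10 were called higher and 0 lower, against 12.7% and 11.6% of 16359 genes. The called receptors were Tnfrsf12a, Tnfrsf1b, Tnfrsf10b and Tnfrsf1a, and the called ligand was Tnf. The median log2 fold change of the 10 genes was 0.57 in WT and 1.099 in libraries labelled Tet2-/-, beside medians of -0.03 and 0.04 over all genes tested. All 10 passed the filter on low counts in every comparison. By FPKM, 4 genes stood above baseline without overlap in WT (18.9% of all genes tested) and 1 below (10.4%), and 5 above (40.5%) and 0 below (17.9%) in libraries labelled Tet2-/-, so that the share standing above in the latter was near that of all genes. In whole-kidney RNA, fewer cells of a type and less RNA per cell cannot be told apart. Scaling by library sizes alone in place of TMM moved the median of all genes from 0.04 to 0.27 in libraries labelled Tet2-/- and the share of calls that were higher from 52.29% to 67.18%, and Tnfsf12 was then also called, which made 6. Without IR replicate 3 labelled Tet2-/-, the library with the highest adipocyte markers, 5 genes were called. Cell type markers moved with IR in these libraries. Of the neutrophil markers 8 of 9 tested were called higher, and their summed level was 75.6 to 133.7 FPKM after IR against 1.91 to 3.17 at baseline. Of the proximal tubule markers 6 of 10 were called lower, at 1243 to 2290 FPKM against 4530 to 5256, and of the lymphocyte markers 2 of 11 tested were called lower, at 0.495 to 2.91 FPKM against 2.38 to 4.755. No marker of these lists was at 0 throughout a group, and their part in the levels of the 5 genes was not tested.

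**Figure D2:**
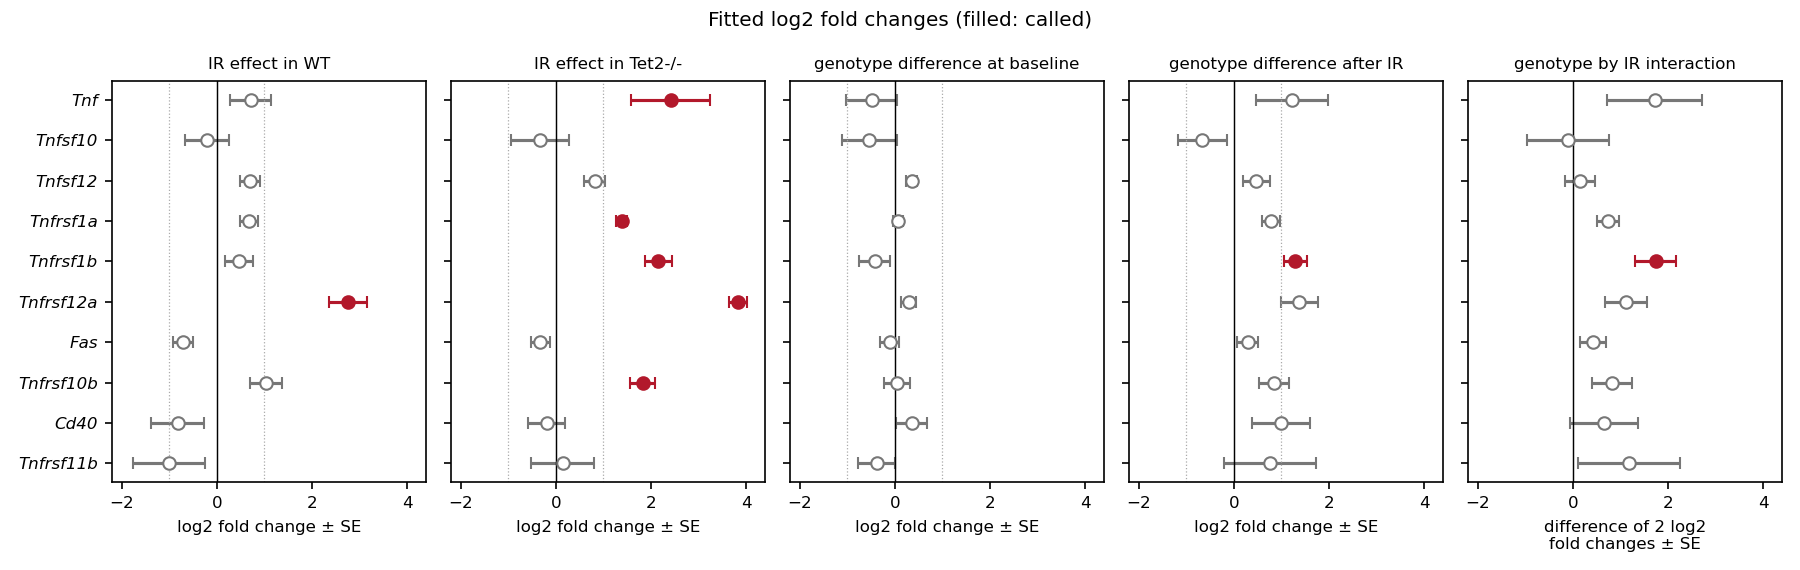
Fitted log2 fold changes (horizontal axis) with standard errors for the 10 genes in the IR effect in WT, the IR effect in libraries labelled Tet2-/-, the genotype difference at baseline and after IR, and the interaction, which is the difference between both IR effects. Filled points passed the call and dotted lines mark the fold threshold, which the interaction did not use. Tnfrsf12a was called in both IR comparisons and Tnfrsf1b in all but the IR effect in WT and the baseline comparison.

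Tnfrsf12a encodes Fn14, a small receptor without a death domain that binds TWEAK. On mm9 its transcript NM_013749 lies at chr17:23812412-23814416 on the minus strand. It measured 18.2, 21.5 and 14.8 FPKM in WT baseline and 62.8, 187.8 and 132.2 FPKM in WT IR libraries. It measured 22.1, 20.7 and 19.8 FPKM in baseline libraries labelled Tet2-/- and 374.4, 295.8 and 385.1 FPKM in the IR libraries so labelled. All 6 IR libraries stood above all 6 baseline libraries, and every IR library labelled Tet2-/- stood above every WT IR library. The log2 fold change with IR was 2.76 (SE 0.39, adjusted p = 0.0203, edgeR) in WT, a 7.02-fold ratio of mean FPKM, and 3.83 (SE 0.19, adjusted p = 4.78e-05, edgeR) in libraries labelled Tet2-/-, a 16.9-fold ratio. It was the largest of the 10 in both. The WT call rested on all of its libraries but WT IR replicate 1, since leaving out any of the other 5 raised the adjusted p to between 0.0560 and 0.0873 (edgeR) with log2 fold changes of 2.45 to 2.90. With WT baseline replicate 1 as the lone WT baseline library, which avoids the libraries with high adipocyte markers, the log2 fold change was 2.74 (adjusted p = 0.348, edgeR, over alternatives that ran from 2.48e-11 to 0.348). WT IR replicate 1, the lowest IR library for Tnfrsf12a, was also the lowest for the injury markers Havcr1 (213.8 FPKM, against 558.6 to 1432 in the other 5) and Lcn2 (74.2 FPKM, against 158.1 to 1923). With IR in WT, 2 of 12 macrophage markers were called higher and 1 of 10 proximal tubule markers lower. The lymphocyte markers, 0 of 10 tested called, summed to 0.658 to 1.77 FPKM after IR against 3.28 to 3.68 at baseline, and the neutrophil markers, 0 of 4 tested called, to 4.14 to 9.52 against 0.673 to 2.51. The part of injury extent or of these cell types in the level of Tnfrsf12a was not tested.

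The exons of Tnfrsf12a share 78 of 963 bases with Hcfc1r1 on the opposite strand, and the strand setting of the counting is not given in the sources used here. Hcfc1r1 measured 41.2 to 64.2 FPKM over the 12 libraries and its groups overlapped in every comparison. Tnfsf12 encodes TWEAK, the ligand of Fn14 (NM_011614, mm9 chr11:69499742-69509600, minus strand). It measured 8.77, 7.87 and 8.17 FPKM in WT baseline and 10.6, 18.2 and 13.4 FPKM in WT IR libraries. The libraries labelled Tet2-/- held 10.4, 9.45 and 9.82 FPKM at baseline and 14.1, 22.5 and 25.7 FPKM after IR. The IR libraries stood above baseline in both genotypes without overlap. With IR it differed by a log2 fold change of 0.70 (SE 0.20, adjusted p = 0.112, edgeR) in WT and 0.82 (SE 0.22, adjusted p = 0.0218, edgeR) in libraries labelled Tet2-/-, which passed the p threshold and not that of the fold. With library sizes alone it was 1.04 and passed both. It also passed both with limma on log2(FPKM + 0.1) and without IR replicate 1 labelled Tet2-/-, at 1.02 in each. In the latter fits Tnf was not called, so the count of called genes stayed at 5. The ligand shares 731 of 1515 exonic bases with BC096441 on the same strand, and the reads of the pair cannot be told apart in these exons.

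The receptor changed by more than the ligand. The ratio of Tnfrsf12a to Tnfsf12 FPKM was 1.81 to 2.73 in the WT baseline libraries and 2.02 to 2.19 in the baseline libraries labelled Tet2-/-. It was 5.95 to 10.3 in WT IR libraries and 13.2 to 26.5 in IR libraries labelled Tet2-/-, so the 4 ranges of IR and baseline did not meet within a genotype, and those of both IR groups did not meet either.

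Tnf, the ligand that both Tnfrsf1a and Tnfrsf1b bind, was scarce (NM_013693, mm9 chr17:35336312-35338952, minus strand). Its counts ran from 3 to 157.5 per library. It measured 0.069, 0.074 and 0.091 FPKM in WT baseline and 0.197, 0.137 and 0.077 FPKM in WT IR libraries. It measured 0.089, 0.052 and 0.019 FPKM in baseline libraries labelled Tet2-/- and 0.205, 0.743 and 0.087 FPKM after IR. The groups overlapped in both genotypes, and the IR mean labelled Tet2-/- was set by replicate 2. The fitted log2 fold change was 0.72 (SE 0.43, adjusted p = 0.369, edgeR) in WT and 2.42 (SE 0.83, adjusted p = 0.0487, edgeR) in libraries labelled Tet2-/-. The latter call was lost with the upper quartile, with summed transcripts and with both limma fits (adjusted p = 0.0514, 0.0514, 0.155 and 0.0808) and on leaving out any of its 6 libraries but IR replicate 3, and without IR replicate 2 the value fell to 1.31 (adjusted p = 0.159, edgeR, the highest over its alternatives, which ran from 0.0159). IR replicate 2 labelled Tet2-/- also had the highest summed level of the 12 macrophage markers, 245 FPKM against 111.1 and 66.0 in replicates 1 and 3 and 35.6 to 82.7 in the other 9 libraries. Of the 12 macrophage markers, 3 were called higher with IR in libraries labelled Tet2-/- and 1 lower, and none was at 0 throughout a group. Their part in the Tnf level was not tested.

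Tnfrsf1a encodes TNFR1, the death-domain receptor found on most cells (NM_011609, mm9 chr6:125299741-125312501, plus strand). It measured 17.3, 19.5 and 16.2 FPKM in WT baseline and 24.2, 39.6 and 24.9 FPKM in WT IR libraries. It measured 18.3, 18.01 and 15.7 FPKM in baseline libraries labelled Tet2-/- and 58.4, 53.5 and 50.3 FPKM after IR. IR libraries stood above baseline in both genotypes, and the 3 IR libraries labelled Tet2-/- stood closely together above all others. The log2 fold change was 0.68 (SE 0.19, adjusted p = 0.105, edgeR) in WT and 1.38 (SE 0.12, adjusted p = 0.000253, edgeR) in libraries labelled Tet2-/-, and the latter was called under every alternative run.

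Tnfrsf1b encodes TNFR2, which lacks a death domain and is found mainly on leukocytes and endothelium (NM_011610, mm9 chr4:144802271-144836773, minus strand). It measured 0.983, 1.04 and 0.537 FPKM in WT baseline and 1.17, 1.56 and 0.952 FPKM in WT IR libraries. It measured 0.478, 0.823 and 0.487 FPKM in baseline libraries labelled Tet2-/- and 3.50, 3.95 and 2.21 FPKM after IR. WT IR and WT baseline overlapped, whereas each IR library labelled Tet2-/- stood above the 9 others. The log2 fold change was 0.46 (SE 0.29, adjusted p = 0.398, edgeR) in WT and 2.16 (SE 0.29, adjusted p = 0.00114, edgeR) in libraries labelled Tet2-/-. The ratio of Tnfrsf1b to Tnfrsf1a FPKM stayed under 0.1 in all 12 libraries.

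Tnfrsf10b encodes a TRAIL receptor of the mouse (NM_020275, mm9 chr14:70167279-70184218, plus strand). Its level was 0.465, 0.690 and 0.462 FPKM in WT baseline and 0.727, 1.44 and 1.28 FPKM in WT IR libraries. It measured 0.672, 0.453 and 0.457 FPKM in baseline libraries labelled Tet2-/- and 2.47, 2.58 and 1.67 FPKM after IR. IR stood above baseline in both genotypes by FPKM, although in WT the groups overlapped after TMM scaling. Its log2 fold change was 1.04 (SE 0.34, adjusted p = 0.138, edgeR) in WT and 1.82 (SE 0.26, adjusted p = 0.00149, edgeR) in libraries labelled Tet2-/-. DESeq2 called the WT difference (1.05, adjusted p = 0.0346, over alternatives from 0.0346 to 0.436).

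Tnfsf10 encodes TRAIL, the ligand of this receptor (NM_009425, mm9 chr3:27215999-27238587, plus strand). It measured 4.23, 4.42 and 11.3 FPKM in WT baseline and 3.67, 6.53 and 7.69 FPKM in WT IR libraries. It measured 2.87, 8.02 and 2.11 FPKM in baseline libraries labelled Tet2-/- and 3.02, 7.86 and 1.77 FPKM after IR. The range within each group was wider than any difference between group means, and within a genotype the highest library had the same replicate number at baseline and after IR. The log2 fold change with IR was -0.21 (SE 0.47, adjusted p = 0.822, edgeR) in WT and -0.34 (SE 0.61, adjusted p = 0.676, edgeR) in libraries labelled Tet2-/-. With the replicate number as a block the values were -0.13 (SE 0.21) and -0.33 (SE 0.15), neither of which passed the test (adjusted p = 0.739 and 0.106, edgeR).

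Fas encodes the receptor of Fas ligand and signals through a death domain (NM_007987, mm9 chr19:34365149-34402260, plus strand). It measured 5.74, 5.29 and 3.70 FPKM in WT baseline and 3.14, 2.95 and 3.23 FPKM in WT IR libraries. It measured 4.74, 3.92 and 4.18 FPKM in baseline libraries labelled Tet2-/- and 3.35, 4.70 and 4.22 FPKM after IR. WT IR stood below WT baseline without overlap, and the groups labelled Tet2-/- overlapped by FPKM but stood apart, IR below, after TMM scaling. With IR, Fas had a log2 fold change of -0.72 (SE 0.21, adjusted p = 0.120, edgeR) in WT and -0.32 (SE 0.20, adjusted p = 0.216, edgeR) in libraries labelled Tet2-/-.

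Cd40 encodes a co-stimulatory receptor of B cells, macrophages and endothelium (NR_027852, mm9 chr2:164881136-164897154, plus strand). Its 5 transcripts in the table held 1333 to 1435 counts each over the 12 libraries, and shared reads cannot be assigned to 1 of them. It measured 0.787, 0.731 and 0.415 FPKM in WT baseline and 0.648, 0.393 and 0.122 FPKM in WT IR libraries, with 0.552, 0.940 and 0.798 FPKM at baseline and 0.472, 1.25 and 0.721 FPKM after IR in libraries labelled Tet2-/-. The groups overlapped throughout, and the log2 fold change was -0.82 (SE 0.56) in WT and -0.20 (SE 0.40) in libraries labelled Tet2-/-. Tnfrsf11b encodes osteoprotegerin, a soluble decoy for RANKL and TRAIL (NM_008764, mm9 chr15:54082174-54110039, minus strand). It held 2 to 24 counts per library, 0.008 to 0.066 FPKM, with overlap between IR and baseline in both genotypes. The fitted IR effect on the log2 scale was -1.001 (SE 0.76, adjusted p = 0.474, edgeR) in WT and 0.14 (SE 0.67, adjusted p = 0.879, edgeR) in libraries labelled Tet2-/-. Without WT IR replicate 1, which held 12 counts against 2 in each of the other two, the WT value was -2.46 (adjusted p = 0.0920, edgeR).

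At baseline 0 of the 10 genes were called between genotypes, where 0.0124% of 16086 genes were called higher and 0% lower (edgeR). Over all genes, 1891 had an unadjusted p under 0.05, and DESeq2 called 23 higher and 297 lower. Of the 10 genes DESeq2 called 0 of the 8 to which it gave an adjusted p, which were all but Tnf and Tnfrsf11b. By FPKM, 1 of the 10, Tnfsf12, stood above in the libraries labelled Tet2-/- without overlap (3.06% of all genes) and 0 below (16.5%). Its log2 fold change was 0.35 (SE 0.11, adjusted p = 0.325, edgeR), with the lowest p of the 10. Log2 fold changes of the other 9 ran from -0.53 for Tnfsf10 to 0.35 for Cd40.

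After IR, 1 of the 10 genes was called higher in libraries labelled Tet2-/- than in WT and 0 lower, where 2.3% of 16186 genes were called higher and 3.85% lower. This was Tnfrsf1b, with a log2 fold change of 1.29 (SE 0.24, adjusted p = 0.0235, edgeR), a 2.62-fold ratio of mean FPKM. By FPKM, 5 of the 10 stood above WT without overlap (22% of all genes) and 0 below (14.6%), namely Tnfrsf1a, Tnfrsf1b, Tnfrsf12a, Tnfrsf10b and Fas, of which Fas overlapped after TMM scaling. Tnfrsf1a differed by 0.78 (SE 0.19, adjusted p = 0.0478, edgeR) and passed the p threshold only. It no longer did so in 5 of the 6 fits that left out a library (adjusted p = 0.0839 to 0.1575, and 0.0911 without IR replicate 3 labelled Tet2-/-, the library with the highest adipocyte markers, edgeR), nor with the replicate block, no filter or summed transcripts (adjusted p = 0.0628, 0.0516 and 0.0510, edgeR, over alternatives from 0.00477). Tnfrsf12a differed by 1.38 (SE 0.38, adjusted p = 0.0676, edgeR), which DESeq2, limma on log2(FPKM + 0.1) and the fit of all 12 libraries called (adjusted p = 0.00367, 0.0453 and 0.0133, over alternatives from 0.00367 to 0.150). Tnfrsf10b differed by 0.85 (SE 0.32, adjusted p = 0.135, edgeR) and Tnf by 1.22 (SE 0.75, adjusted p = 0.327, edgeR). The share of calls over all genes that were higher was 37.45% here and 47.5% with limma on log2(FPKM + 0.1), and library sizes alone moved the median of all genes from 0.04 to 0.14.

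The call of Tnfrsf1b was lost without WT IR replicate 1 or 3 and without IR replicate 1 or 2 labelled Tet2-/-. These fits gave log2 fold changes of 1.18 to 1.24 and adjusted p of 0.0632 to 0.0846 (edgeR). It was also lost with limma on log2(FPKM + 1), at 0.91 (adjusted p = 0.0436, limma), under the fold threshold. Neutrophil markers moved with Tnfrsf1b. The 10 markers summed to 133.7, 125.8 and 75.6 FPKM in IR libraries labelled Tet2-/- against 4.14, 9.52 and 6.36 FPKM in WT IR, and 7 of the 9 tested were called higher. The same IR libraries labelled Tet2-/- had 2290, 1243 and 1489 FPKM of the 10 proximal tubule markers against 4394, 3180 and 4427 in WT IR, and 5 of 10 were called lower. Of the macrophage markers 2 of 12 were called higher, at a summed 66.0 to 245 FPKM in IR libraries labelled Tet2-/- against 35.6 to 77.4 in WT IR. Of the endothelial markers 0 of 8 were called, at 60.7 to 121.1 FPKM against 15.8 to 74.1. No marker of these 4 lists was at 0 throughout a group. The part of leukocyte or endothelial content or tubule loss in the receptor levels was not tested.

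The interaction asks whether the IR effect differed between genotypes. It was called, at an adjusted p under 0.05 with no fold threshold, for 1 of the 10 genes in the higher direction and 0 in the lower, where 3.79% of 16741 genes were called higher and 5.39% lower. Tnfrsf1b had a difference of 1.74 (SE 0.43, adjusted p = 0.0315, edgeR) between its log2 fold changes. The call was lost in 8 of the 12 fits that left out a library, at adjusted p of 0.0647 to 0.0865 (edgeR), and with WT baseline replicate 1 as the lone WT baseline library (1.90, adjusted p = 0.0965, edgeR, the highest of alternatives from 0.00232). Cell type markers moved in the same test, with 3 of 9 tested neutrophil, 4 of 8 adipocyte and 1 of 12 macrophage markers called higher and 5 of 10 proximal tubule markers called lower, and their part in the difference was not tested. Tnfrsf1a had 0.74 (SE 0.23, adjusted p = 0.0675, edgeR), which DESeq2, library sizes alone and both limma fits put under the threshold, at 0.0359 to 0.0445 over alternatives from 0.00883 to 0.268. Tnfrsf12a had 1.12 (SE 0.44, adjusted p = 0.133, edgeR), Tnfrsf10b 0.82 (SE 0.42, adjusted p = 0.234, edgeR) and Tnf 1.72 (SE 0.99, adjusted p = 0.289, edgeR). For Tnfrsf1a, Tnfrsf10b and Tnf, which were called with IR in libraries labelled Tet2-/- and not in WT, the IR effect is therefore not shown to differ between genotypes by the test used here. Library sizes alone moved the median of all genes from 0.10 to 0.24 and the share of calls that were higher from 41.28% to 61.73%.

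**Figure D3:**
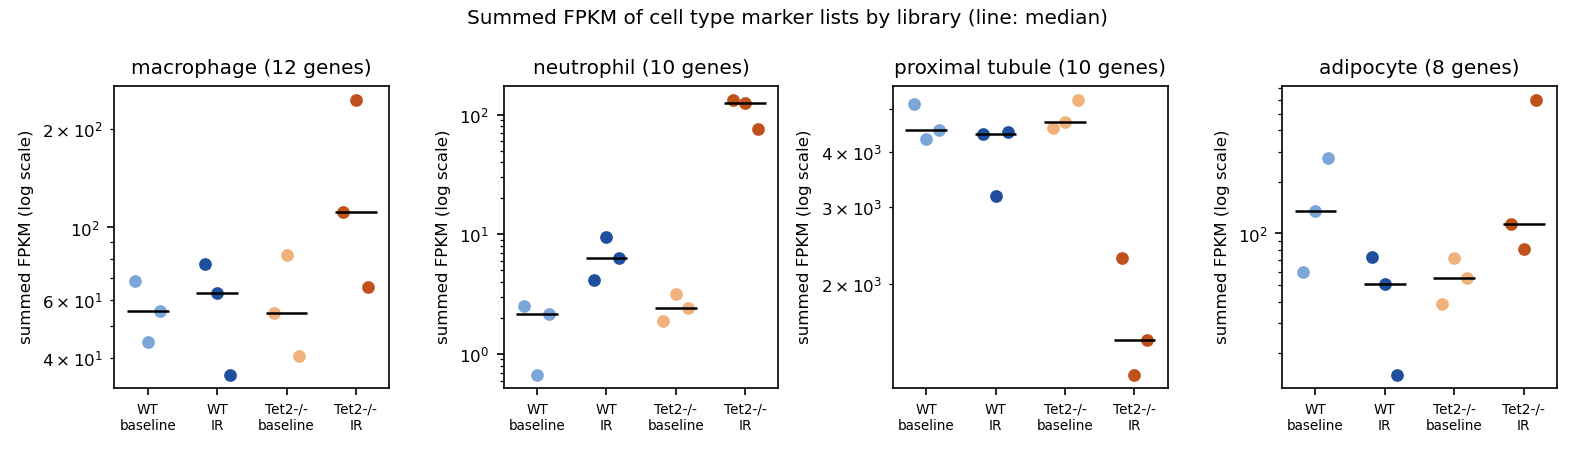
Summed FPKM (vertical axis, log scale) of the macrophage, neutrophil, proximal tubule and adipocyte marker lists in the 12 libraries by group, with the genotype as labelled; points are libraries and lines are medians. The 3 IR libraries labelled Tet2-/- stood at 75.6 to 133.7 FPKM for neutrophil markers, above all others, and at 1243 to 2290 FPKM for proximal tubule markers, below all others.

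The wider family was read from lists of 15 other ligands, 21 other receptors and 30 signalling proteins. With IR in WT, 0 of 8 tested ligands, 0 of 17 receptors and 0 of 30 signalling genes were called in either direction (edgeR), beside the 1.46% of all genes called higher and 0.887% lower. At baseline between genotypes 0 were called in any list, beside 0.0124% and 0%. With IR in libraries labelled Tet2-/-, 2 of 9 ligands, 5 of 17 receptors and 5 of 30 signalling genes were called higher. In these lists 0 were called lower, where 12.7% of all genes were called higher and 11.6% lower. The median log2 fold changes of these lists were 0.82, -0.09 and 0.34, beside 0.04 over all genes tested.

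The called ligands were Tnfsf15 (1.77, SE 0.40) and Tnfsf13, or APRIL, a B cell survival factor (1.55, SE 0.33). The called receptors were led by Tnfrsf23 (4.29, SE 0.36), a mouse decoy receptor for TRAIL that reached a mean of 4.72 FPKM ± 0.892 (SD, n = 3), and by Eda2r (3.83, SE 0.39), a receptor of ectodysplasin. Tnfrsf22, another decoy receptor for TRAIL (2.06, SE 0.26), Tnfrsf9, the co-stimulatory receptor of T cells (3.24, SE 1.01), and Relt (2.003, SE 0.49) were the others. The means of Tnfsf15, Eda2r, Tnfrsf9 and Relt stayed under 1 FPKM after IR, at 0.835, 0.503, 0.220 and 0.569. At baseline they were 0.201, 0.0283, 0.0213 and 0.117 FPKM. The lowest IR library of Tnfrsf9 held 0.060 FPKM, against 0.051 FPKM in its highest baseline library. Of the signalling genes, Birc3 (1.69, SE 0.20) encodes a ubiquitin ligase of the TNF receptor complex, while Tnfaip3, the A20 gene (1.44, SE 0.27), and Cyld (1.03, SE 0.15) encode deubiquitinases that restrain NF-kB. Ikbkg (1.14, SE 0.14) encodes the regulatory subunit of the IKK complex and Map3k14 (1.07, SE 0.22) the kinase of non-canonical NF-kB signalling. After IR between genotypes, 1 of 17 tested receptors, Relt (2.12, SE 0.46, adjusted p = 0.0361, edgeR), was called higher. Among ligands 0 of 7 and among signalling genes 0 of 30 were called higher. In these lists 0 were called lower, where 2.3% of all genes were called higher and 3.85% lower. The interaction was called higher for 3 of 17 receptors, 0 of 9 ligands and 1 of 30 signalling genes. It was called lower for 0, where 3.79% of all genes were called higher and 5.39% lower. These were Tnfrsf23 (2.93, SE 0.71), Eda2r (2.57, SE 0.65), Tnfrsf22 (1.86, SE 0.51) and the adaptor Traf3 (0.61, SE 0.15). Each had a lower mean at baseline in libraries labelled Tet2-/- than in WT, so the interaction also holds an uncalled baseline difference. These means were 0.199 against 0.444 FPKM for Tnfrsf23, 0.0283 against 0.0927 for Eda2r, 0.348 against 0.6203 for Tnfrsf22 and 2.261 against 2.646 for Traf3. After IR the means were 4.718 against 1.198, 0.503 against 0.2397, 1.743 against 0.7633 and 5.266 against 3.629 FPKM in the same gene order. The part of the baseline levels was not tested.

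**Figure D4:**
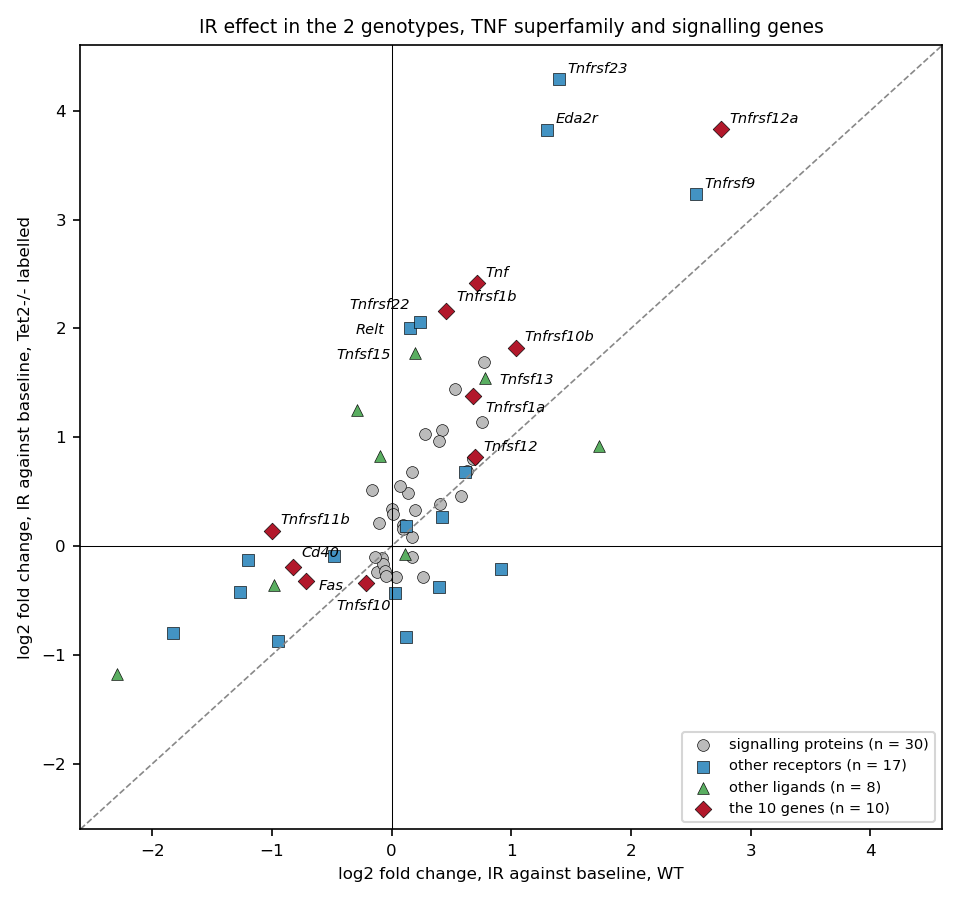
Log2 fold change with IR in WT (horizontal axis) and in libraries labelled Tet2-/- (vertical axis) for the 10 genes and the tested genes of the lists of other ligands, other receptors and signalling proteins; the dashed line marks equal values. Tnfrsf12a, at 2.76 and 3.83, lay highest of the 10 on both axes, and Tnfrsf23, at 1.399 and 4.29, lay highest of all points on the vertical axis.

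Profiles were compared by the root mean square difference of centred log2 CPM over the 12 libraries. CPM are counts scaled to library size with TMM factors, here with a prior count of 1. The gene whose profile lay nearest to each of the 10 was sought among 16741 genes. For Tnfrsf12a it was Srxn1, the antioxidant enzyme sulfiredoxin (0.372, against 1.75 for the spread of Tnfrsf12a about its own mean). For Tnfrsf1a it was Gar1, a small nucleolar RNP protein (0.109, against 0.616), for Tnfrsf1b it was Dysf, the membrane repair protein dysferlin (0.270, against 0.894), and for Tnfrsf10b it was Nfkb2, a subunit of NF-kB (0.188, against 0.841). Nfkb2 had means of 3.64 FPKM at baseline and 8.68 FPKM after IR in WT, and 3.98 and 13.6 FPKM in libraries labelled Tet2-/-. For Tnf it was Il1rl2 (0.463, against 1.05), for Tnfsf10 Ppm1l (0.429, against 0.808) and for Tnfsf12 Ap1s1 (0.161, against 0.488). For Fas it was Flywch2 (0.133, against 0.322), for Cd40 Oasl2 (0.229, against 0.782) and for Tnfrsf11b Adamts7 (0.452, against 0.95). Each neighbour is the closest of all genes searched, and the match was not tested.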

How the data were processed

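Whole-kidney total RNA was sequenced. Per the study's methods, STAR placed the reads on mm9 and HOMER counted them per RefSeq transcript. The authors deposited read counts without normalization, and FPKM values for those transcripts. Because the deposited counts come in steps of 0.5, they were handled like expected counts and rounded for the count tests. The highest-total transcript of each of 24421 symbols was used. Each comparison used its own 6 libraries with TMM, edgeR's filter for low counts and quasi-likelihood F test, and p-values were adjusted by Benjamini-Hochberg (R 4.3.3, edgeR 4.0.16). The interaction used all 12 libraries. The standard error is the log2 fold change divided by the square root of F. Coordinates were counted from 1, since 17108 of 30203 transcripts start at an annotated start on this build. Motifs in promoters were searched with Python 3.11.15, and figures drawn with matplotlib 3.10.9. The NF-kB motif was chosen with the lists, and the GC box, TATA box and AP-1 site after the other results. Fits were tested on simulated data.

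The 10 genes, the marker and pathway lists and the alternatives were chosen with earlier results of these data known. All 10 genes are described, and other genes of the lists were named where called without overlap of the groups, up to 5 in each direction for each list and comparison. Alternatives were DESeq2 1.42.0, limma 3.58.1 on log2(FPKM + 1) and log2(FPKM + 0.1), library sizes alone, upper quartile, no filter, a mean FPKM of 1, summed transcripts, a replicate block, all 12 libraries in a fit, no fold threshold and each library left out. With the lone WT baseline library, chosen after the adipocyte markers were seen, that library is assumed to vary like the others. Within a genotype, baseline and IR libraries of the same number shared deviations, with correlations of 0.337, 0.342 and 0.333 for WT and 0.122, 0.344 and 0.186 for libraries labelled Tet2-/-. For the replicate block the numbers were taken to pair baseline with IR from these correlations, not from the labels. The study's methods describe separate mice for baseline and for IR. The source of the shared deviations was not tested.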

Additional observations from a re-analysis of the deposited data

Results flagged for a closer look

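The IR effect on Tnfrsf1b, the TNFR2 gene, was larger in libraries labelled Tet2-/- than in WT by 1.74 on the log2 scale (SE 0.43, adjusted p = 0.0315, edgeR's quasi-likelihood test of the interaction), and was higher in 3 of 3 IR libraries so labelled than in every other library. It was drawn out because the difference between both IR effects itself passed the test. The call was lost in 8 of the 12 fits that left out a library (adjusted p = 0.0647 to 0.0865, edgeR) and with WT baseline replicate 1 as the lone WT baseline library (adjusted p = 0.0965, edgeR). In the same test 3 of 9 neutrophil, 4 of 8 adipocyte and 1 of 12 macrophage markers were called higher. Of the proximal tubule markers 5 of 10 were called lower. The part of these markers in the difference was not tested.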

How the results depend on the processing

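Of 903 values of single genes under the alternatives, 826 kept their direction and side of the threshold, 29 lost a call, 15 gained one and 33 turned direction, none of them a called value. The 826 include 2 values, of Tnf and Tnfrsf11b at baseline, that kept their direction but have no adjusted p from DESeq2. The 5 calls with IR in libraries labelled Tet2-/- became 6 with library sizes alone or no fold threshold, 4 with the upper quartile, a mean FPKM of 1, limma on log2(FPKM + 1) or summed transcripts, and 4 to 5 with a library left out. With IR in WT the 1 call became 2 with DESeq2, 0 with the lone WT baseline library and 0 to 1 with a library left out. Between genotypes after IR the 1 call became 2 with DESeq2, limma on log2(FPKM + 0.1), all 12 libraries or no fold threshold, 0 with limma on log2(FPKM + 1), and 0 to 1 with a library left out. In the interaction the 1 call became 2 with DESeq2, library sizes alone and both limma fits, 0 with the lone WT baseline library and 0 to 3 with a library left out. The cause was not tested.

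The replicate block changed no count of calls among the 10 genes, while over all genes it moved the IR calls in WT from 234 higher and 142 lower to 428 and 559. In the genotype comparisons same-numbered libraries correlated at -0.17, -0.14 and 0.03 at baseline and -0.0015, 0.20 and 0.29 after IR, so the numbers do not pair them.

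None of the values that turned direction passed the test. With IR in WT, Tnfsf10 became 0.44 with the lone baseline library and -0.51 to 0.43 with a library left out. With IR in libraries labelled Tet2-/-, Cd40 became 0.052 with library sizes alone and 0.024 and 0.018 with limma at pseudocounts of 1 and 0.1, Tnfrsf11b became -0.032 with the block, and with a library left out Cd40 ran from -0.55 to 0.056, Tnfrsf11b from -0.20 to 0.59 and Tnfsf10 from -1.05 to 0.46. At baseline, Tnfrsf1a became -0.0033 with library sizes alone and -0.021 and -0.022 with the limma fits, Tnfrsf10b became -0.014, -0.011 and -0.026 with these, Tnfsf10 became 0.13 with the lone library, and with a library left out Tnfsf10 ran from -1.33 to 0.10, Fas from -0.27 to 0.014 and Tnfrsf10b from -0.13 to 0.27. In the interaction, Tnfsf10 became 0.085 with library sizes alone and 0.018 with limma on log2(FPKM + 1), and with a library left out it ran from -0.90 to 0.64 and Tnfsf12 from -0.094 to 0.36. Tnf and Tnfrsf11b rest on 3 to 157.5 and 2 to 24 counts per library, and every group on 3 libraries.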
